A study of Mus musculus with 16 samples.

Results

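The chemokine axis that calls neutrophils into tissue was followed through 5 genes across injured and uninjured mouse knee joints: the ligands Cxcl1, Cxcl2 and Cxcl5, their receptor Cxcr2, and Csf3r, the receptor for the neutrophil growth factor G-CSF. They were taken by symbol, and all 5 were found among the 13733 genes listed. The set was named with earlier results of these data known: Cxcl5 had been singled out for its level in Trem2-/- mice after injury. The values of the 5 genes in Trem2-/- against WT mice at D7, and all values of Cxcl5 at D7, are therefore given as a description, with no test.

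The study collected bulk RNA-seq from the knee joint cells of 16 mice, 4 in each of 4 groups. WT mice were C57BL/6. Trem2-/- mice were the C57BL/6 knock-out line of Trem2, a lipid-sensing surface receptor of macrophages, which lacks it from birth and in every cell type. At D0 the joints were uninjured, and at D7 they were taken 7 days after the anterior cruciate ligament was torn by a single compression of the tibia at 10 weeks of age. The paper names male mice and cells freed by enzyme digestion, while the labels also carry an age of 16 weeks and a protocol for homogenized joints of control and diabetic mice. Whether leukocytes were enriched by CD45 before these libraries were made is not given in the sources used here. The groups rest on genotype and injury, on which the sources give the same answer. The labels do not say whether the libraries of a group came from separate experiments, so p-values measure the spread between these mice.

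Neutrophils leave the marrow and enter tissue along gradients of small CXC chemokines. Cxcl1, Cxcl2, Cxcl3, Cxcl5 and Ppbp all bind Cxcr2, a receptor coupled to inhibitory G proteins that turns on phosphoinositide 3-kinase and Rac and so drives crawling. Cxcl1 and Cxcl5 are made chiefly by fibroblasts, epithelium and endothelium, and Cxcl2 chiefly by myeloid cells, neutrophils included. Csf3, the gene of G-CSF, acts through Csf3r, Jak kinases and Stat3 to raise neutrophil output and survival. In the injured joint, neutrophils are early arrivals.

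The 5 Cxcr2 ligands listed lie in one cluster on chromosome 5, all on the plus strand of GRCm38, in the order Cxcl5, Ppbp, Cxcl3, Cxcl1, Cxcl2, within 146579 bases (chr5:90759360-90905938). Cxcl1 lies at chr5:90891241-90893115 and Cxcl2 starts 10755 bases further on, at chr5:90903871-90905938. Cxcl5 opens the cluster at chr5:90759360-90761624. The receptors lie elsewhere, Cxcr2 at chr1:74153989-74161246 and Csf3r at chr4:126024550-126044440. Of all stretches of 75 bases, the read length, in the exons of Cxcl2, 4.57% also occurred in Cxcl3, and for Cxcl1 the share was 0.

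The promoters of Cxcl1, Cxcl2 and Cxcl3 are shown because these neighbours share letters just upstream of their starts, while Cxcl1 and Cxcl2 levels went together only weakly over the mice. The sequences are from RefSeq on GRCm38.p6, plus strand, for chr5:90891144-90891240, chr5:90903772-90903870 and chr5:90785998-90786100. Capitals mark GGGAATTTCCC, the longest run of letters common to the 250 bases before all 3 starts, which contains the binding motif of NF-kB, a transcription factor of inflammatory signals.
Cxcl1: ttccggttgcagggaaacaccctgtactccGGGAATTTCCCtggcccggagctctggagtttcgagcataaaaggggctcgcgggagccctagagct
Cxcl2: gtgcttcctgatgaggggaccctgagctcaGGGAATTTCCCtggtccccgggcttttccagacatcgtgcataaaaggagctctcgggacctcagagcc
Cxcl3: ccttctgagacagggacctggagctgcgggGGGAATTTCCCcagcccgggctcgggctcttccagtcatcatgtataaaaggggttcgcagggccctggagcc
The run began at -71 in Cxcl1, -97 in Cxcl2 and -73 in Cxcl3, counted from the RefSeq start. Searched on both strands from 250 bases before to 50 after each start, it was found for 14 of 27025 genes (0.0518%). The windows of Cxcr2 and Csf3r did not hold these letters, and that of Cxcl5 was not analysed here.

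The deposited values are CPM (reads per gene scaled to a common library size) after TMM scaling, which corrects library sizes for differences in makeup. Reads on listed genes ranged from 11567073 to 32867818 per mouse, so that 3 reads were worth 0.101 to 0.250 CPM. All 5 genes passed the filter on low values. Cxcl5 was the least abundant, with 32 to 576 reads per mouse, and Cxcl2 had 7147 to 52820. As a check of the labels, Trem2 at D7 read 4.27 ± 0.644 CPM in Trem2-/- and 16.8 ± 5.08 CPM in WT mice (SD, n = 4), with no overlap, and at D0 1 Trem2-/- mouse overlapped WT. Transcript of Trem2 was thus still counted in the knock-out. Replicate 1 of Trem2-/- D0 had the highest Cxcl1, Cxcl2, Cxcl3, Ppbp and Csf3 of all 16 mice, and results that changed when it was left out are given with that value.

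Cxcl1 did not pass the test after injury in either genotype. On average Cxcl1 was higher in injured Trem2-/- than in injured WT mice, which was not tested. In WT D0 mice it read 608, 122, 484 and 475 CPM, and in WT D7 mice 277, 425, 358 and 244 CPM. The injured WT mice all fell inside the range of the uninjured ones. In Trem2-/- D0 mice it read 955, 342, 200 and 445 CPM, and in Trem2-/- D7 mice 502, 575, 475 and 739 CPM. All 4 Trem2-/- D7 mice lay above all 4 WT D7 mice, while the uninjured groups overlapped widely. After injury the log2 fold change was -0.18 in WT (SE 0.47, limma adjusted p = 0.792) and 0.45 in Trem2-/- (SE 0.47, limma adjusted p = 0.434), with 95% intervals of -1.18 to 0.81 and -0.55 to 1.45. Neither difference exceeded the spread between mice. All log2 fold changes here are of CPM + 1, and adjusted p-values are Benjamini-Hochberg values over the 13173 genes tested with limma. Trem2-/- D7 exceeded WT D7 by 0.82 (SE 0.47) on the log2 scale, a 1.77-fold difference. How many of all genes part the injured groups without overlap was not counted. Before injury the difference between genotypes was 0.19 (SE 0.47, limma adjusted p = 1), and it turned to -0.21 without Trem2-/- D0 replicate 1 and to -0.33 without WT D0 replicate 2.

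Cxcl2 was the most abundant of the 5 genes and was lower after injury in Trem2-/- mice. In Trem2-/- D0 mice it read 2429, 2260, 967 and 1241 CPM, and in Trem2-/- D7 mice 556, 763, 918 and 1160 CPM. Of the injured mice, 3 lay below every uninjured one. The log2 fold change was -0.97 (SE 0.38, limma adjusted p = 0.0422), a fold of 1.95. It did not pass an unadjusted p of 0.05 without Trem2-/- D0 replicate 1 (log2 fold change -0.77), without Trem2-/- D0 replicate 2 (-0.80) or without Trem2-/- D7 replicate 1 (-0.78). In WT D0 mice Cxcl2 read 1067, 1030, 1811 and 1266 CPM, and in WT D7 mice 498, 949, 1821 and 842 CPM. Here 3 injured mice were below all uninjured mice, but replicate 3 was above them all. The log2 fold change in WT was -0.45 (SE 0.38, limma adjusted p = 0.376), and without that mouse -0.78 (limma adjusted p = 0.111). The injury effect on Cxcl2 in Trem2-/- mice minus that in WT mice was -0.52, given with no test. The fall of Cxcl2 is thus not shown to be specific to Trem2-/- mice. At D0 the genotypes differed by 0.35 (SE 0.38, limma adjusted p = 1) on the log2 scale, which did not pass. At D7 they overlapped, with a log2 difference of -0.17 (SE 0.38) that turned to 0.16 without WT D7 replicate 3.

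Cxcl5 was scarce in 3 groups and higher in injured Trem2-/- mice. It read 15.1, 1.77, 6.11 and 19.0 CPM in WT D0 mice and 8.43, 11.5, 10.7 and 2.14 CPM in WT D7 mice. The WT groups thus overlapped. In Trem2-/- D0 mice it read 20.4, 2.65, 1.91 and 2.78 CPM, and in Trem2-/- D7 mice 19.4, 35.6, 17.4 and 42.1 CPM. Every injured Trem2-/- mouse was above every injured WT mouse, but 2 of the 4 lay below Trem2-/- D0 replicate 1, and 1 lay below the highest WT D0 mouse. The log2 difference between genotypes at D7 was 1.77 (SE 0.68), a fold of 3.42 for 28.6 ± 12.2 against 8.19 ± 4.24 CPM (SD, n = 4). The change with injury was -0.14 (SE 0.68) in WT and 2.35 (SE 0.68) in Trem2-/- mice on the log2 scale. Before injury the difference between genotypes did not pass the test (log2 fold change -0.72, SE 0.68, limma adjusted p = 1, 95% interval -2.17 to 0.73). Without Trem2-/- D0 replicate 1 it was -1.38, which met the call rule given below but had a limma adjusted p of 0.998.

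**Figure D1:**
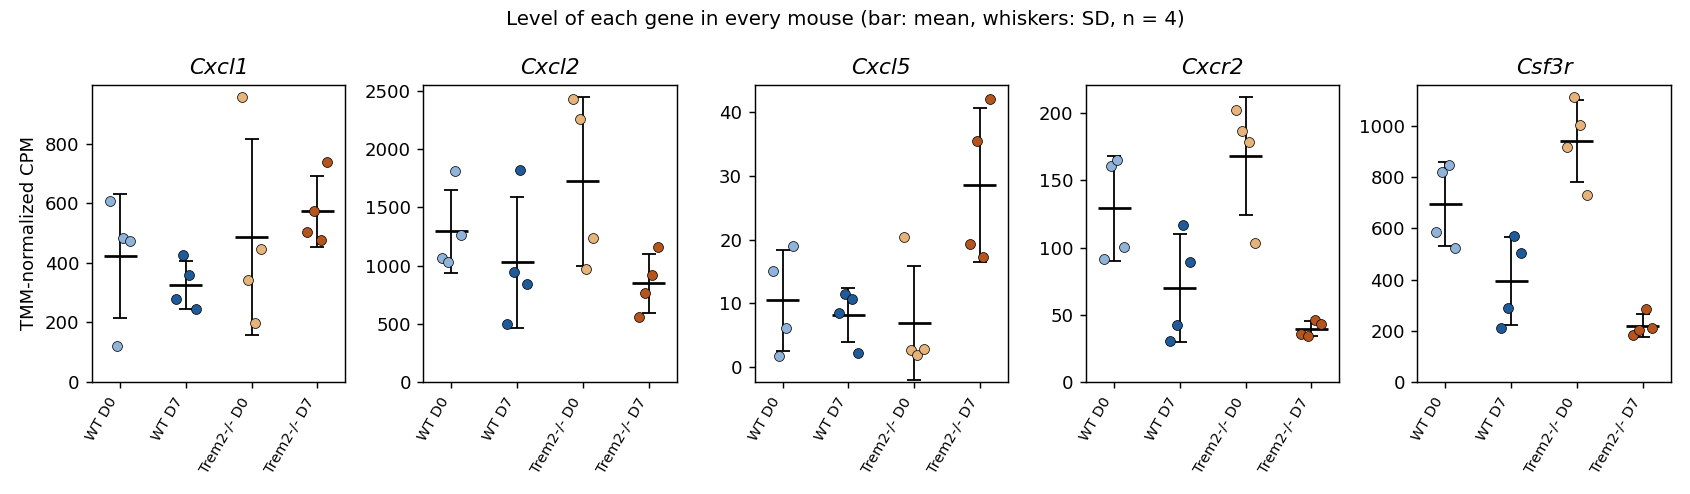
Each point is 1 mouse, on a linear axis of TMM-normalized CPM, with the mean of the 4 mice as a bar and the SD as whiskers. Cxcl1 and Cxcl5 of Trem2-/- D7 mice sit above those of WT D7 mice, whereas Cxcr2 and Csf3r of Trem2-/- D7 mice sit below all Trem2-/- D0 mice.

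The ligands can be set against each other only per length. Exon length here joins the exons of all annotated transcripts. For Cxcl1, Cxcl2 and Cxcl3 it equals the whole gene, introns included (1875, 2068 and 3498 bases). For Cxcl5 it is 1863 of 2265 bases and for Ppbp 1083 of 1546 bases. The lengths are thus not alike between the ligands, and the shares depend on them. Per kilobase of exon, Cxcl2 held 71.4% ± 10.5 of the summed level of the 5 ligands in WT D0 mice, 68.6% ± 9.02 in WT D7, 74.2% ± 7.60 in Trem2-/- D0 and 53.9% ± 5.45 in Trem2-/- D7 (SD, n = 4). Cxcl1 held 24.5% ± 10.97, 27.0% ± 8.45, 22.0% ± 7.33 and 41.0% ± 5.55 in the same order. Cxcl2 was thus the leading ligand on average in each group, and the balance was most even in injured Trem2-/- mice. Cxcl5 held at most 1.13% in any mouse of the other groups and 1.27% to 2.67% in Trem2-/- D7 mice, so it stayed a minor ligand in each mouse. Cxcl3, a close relative of Cxcl2, held 1.97% to 3.58%. Its level did not pass the test in any comparison, with log2 fold changes of -0.12 (SE 0.40) in WT and -0.47 (SE 0.40) in Trem2-/- mice after injury. Ppbp, the platelet member of the family, fell short of the test as well, at -1.20 (SE 0.58, limma adjusted p = 0.127) and -1.16 (SE 0.58, limma adjusted p = 0.105).

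**Figure D2:**
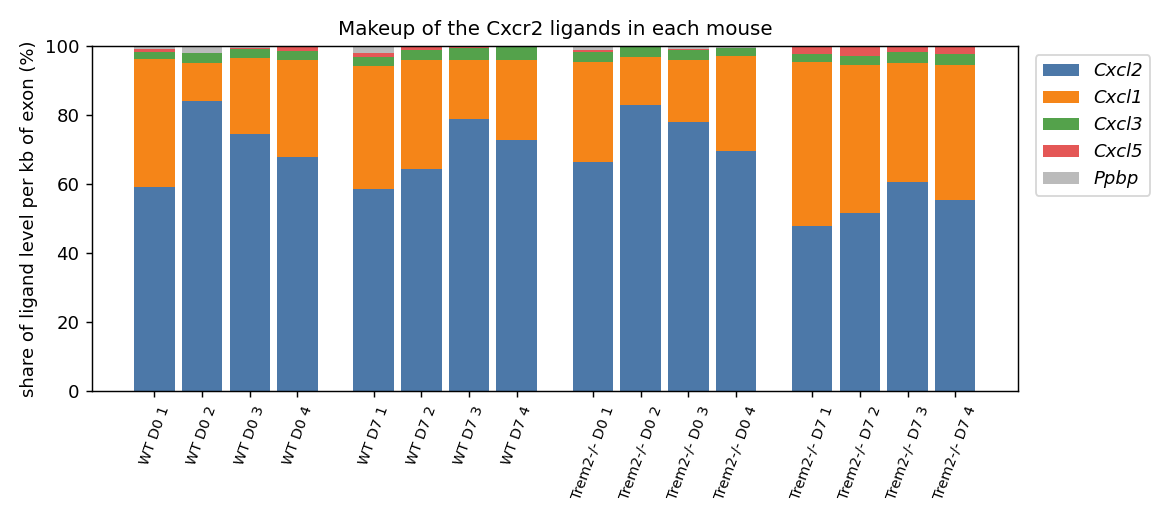
Each bar is 1 mouse, split by the share in percent of each Cxcr2 ligand in their summed CPM per kilobase of exon. Cxcl2 fills 47.8% to 60.6% of the bar in Trem2-/- D7 mice and 58.4% to 84.0% in the other groups, and the Cxcl5 share reaches 2.67%.

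Cxcr2, the receptor through which these ligands attract neutrophils, was lower after injury in both genotypes. It read 91.4, 161, 165 and 100.1 CPM in WT D0 mice and 30.6, 42.7, 117 and 89.2 CPM in WT D7 mice. Of the injured WT mice, 3 lay below all uninjured ones, and replicate 3 lay among them. In Trem2-/- mice it read 202, 187, 179 and 104 CPM at D0 and 35.7, 34.1, 45.7 and 42.9 CPM at D7. These groups did not overlap. The log2 fold change was -1.03 in WT (SE 0.35, limma adjusted p = 0.0392) and -2.02 in Trem2-/- mice (SE 0.35, limma adjusted p = 0.000257), which are folds of 2.04 and 4.06. Among the 4 genes tested in these comparisons, 2 were called lower in WT and 3 in Trem2-/- mice, where a call is an unadjusted limma p under 0.05 with a change of more than 25% of the lower level. Of all genes tested, 37.4% were called in WT (18.2% lower, 19.3% higher) and 54.5% in Trem2-/- mice (27.9% lower, 26.5% higher). An adjusted limma p under 0.05 was reached by 28.5% and 53.2% of genes. At D0 Cxcr2 was 168 ± 43.9 in Trem2-/- and 129 ± 39.0 CPM in WT (SD, n = 4), a log2 fold change of 0.38 (SE 0.35, limma adjusted p = 1). At D7 the Trem2-/- mice lay within the WT range, with a log2 difference of -0.62 (SE 0.35).

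Csf3r, which gives neutrophils and their precursors their response to G-CSF, moved like Cxcr2 at a higher level. It read 588, 822, 847 and 524 CPM in WT D0 mice and 213, 288, 572 and 504 CPM in WT D7 mice. Only WT D7 replicate 3 reached the uninjured range. In Trem2-/- mice it read 918, 1114, 1002 and 732 CPM at D0 and 182, 204, 286 and 212 CPM at D7, again with no overlap. The log2 fold change with injury was -0.90 in WT (SE 0.28, limma adjusted p = 0.0257) and -2.09 in Trem2-/- mice (SE 0.28, limma adjusted p = 3.91e-05). The fold was 1.86 in WT and 4.26 in Trem2-/- mice. Between genotypes Csf3r was 0.45 higher in Trem2-/- mice at D0 on the log2 scale (SE 0.28, limma adjusted p = 1), which did not pass, and -0.74 (SE 0.28) at D7. At D7, 3 of 4 Trem2-/- mice lay below all WT mice. The difference of the injury effects between genotypes was -1.19 (SE 0.39) for Csf3r, -0.99 (SE 0.49) for Cxcr2 and 2.49 (SE 0.96) for Cxcl5, on the log2 scale. For Cxcl2 it was -0.52, the median of the 5 genes. For Cxcl1 it was above 0 and smaller than for Cxcl5. Of all genes tested, 7.79% were called for this difference, 2.77% higher and 5.02% lower, and nothing is read from that for the members.

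**Figure D3:**
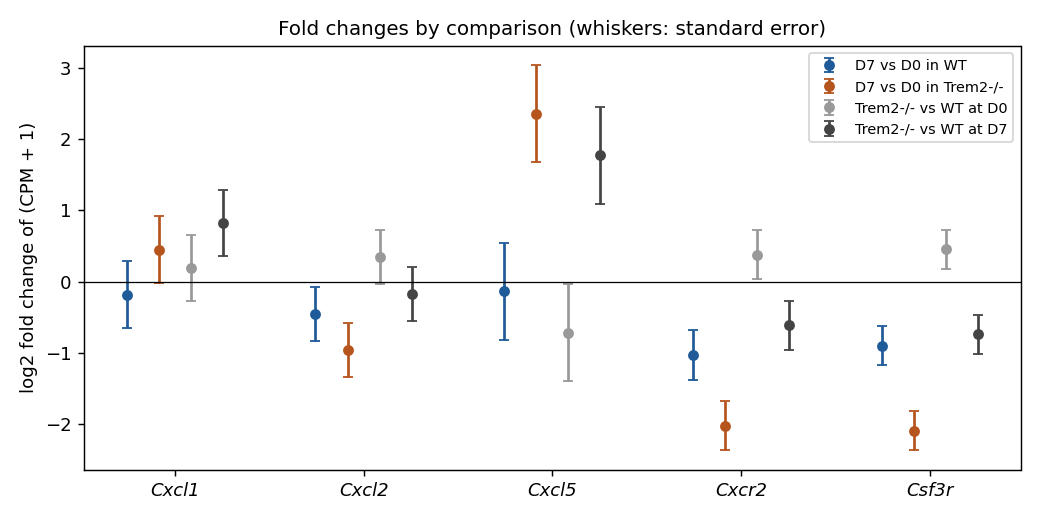
Points are log2 fold changes of CPM + 1 from limma for each gene, coloured by comparison, and whiskers are standard errors. Both receptors lie below 0 after injury in both genotypes, reaching -2.09 for Csf3r in Trem2-/- mice, while Cxcl5 reaches 2.35 there.

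In the order of group means, Cxcr2, Csf3r and Cxcl2 ran from Trem2-/- D0 through WT D0 and WT D7 to Trem2-/- D7, and Cxcl1 had Trem2-/- D7 first and WT D7 last. Cxcl5 also had Trem2-/- D7 first, followed by WT D0, WT D7 and Trem2-/- D0. For each of the 5 genes, every pair of neighbours in that order overlapped. At D0 none of the 5 genes was called between genotypes, where 2.15% of all genes tested were called, 0.782% higher and 1.37% lower.

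The receptors went along with the markers of leukocytes and, less closely, with those of neutrophils. In bulk samples, fewer neutrophils, less RNA per neutrophil and a smaller share of the library beside more RNA of other cells cannot be told apart. The median summed level of the fibroblast markers was 19681 CPM in WT D0 and 104842 CPM in WT D7 mice. In Trem2-/- mice it was 12210 CPM at D0 and 136132 CPM at D7. All 11 neutrophil markers (S100a8, S100a9, Ly6g, Retnlg, Mmp9 and others) were called lower after injury in both genotypes, with a median log2 fold change of -1.52 in WT and -2.33 in Trem2-/- mice, against -0.04 over all genes in both. Their summed level ranged from 15768 to 36705 CPM in WT D0, 5190 to 15477 in WT D7, 16169 to 50754 in Trem2-/- D0 and 4716 to 8154 in Trem2-/- D7 mice. Between genotypes at D7, 0 of the 11 were called by limma, with a median of -0.58. The 6 general leukocyte markers were called lower in all 6 cases in both injury comparisons and also in Trem2-/- against WT at D7 (median -0.70), where 4.53% of all genes were called lower. Their summed level was 1703 to 3697 CPM in WT D7 and 1328 to 1657 CPM in Trem2-/- D7 mice.

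Set against the mean log2 level of the leukocyte markers in the same mouse, Csf3r ranged from -0.27 to 0.54 over the 16 mice, a span of 1.75-fold, while Csf3r alone spanned 6.09-fold. For Cxcr2 the same difference spanned 1.99-fold and the gene itself 6.44-fold. Most of the range of either receptor over the mice was thus shared with the leukocyte markers. Against the neutrophil markers, the span was 3.40-fold for Cxcr2 and 3.41-fold for Csf3r. Against the primary granule genes of immature neutrophils (Mpo, Elane, Prtn3, Ctsg and Ms4a3) it was 8.66-fold and 8.69-fold. These spans were wider than those of the receptors alone. The mean difference of Cxcr2 from the neutrophil markers was 0.48 higher at D7 than at D0 in WT and 0.30 higher in Trem2-/- mice, and for Csf3r 0.61 and 0.23 higher, on the log2 scale. Against the leukocyte markers the mean difference moved the other way, by -0.21 in WT and -0.23 in Trem2-/- mice for Cxcr2, and by -0.08 and -0.30 for Csf3r. The receptors thus fell less than the neutrophil markers and more than the leukocyte markers on average. These ratios were chosen after the values were seen and carry no test.

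**Figure D4:**
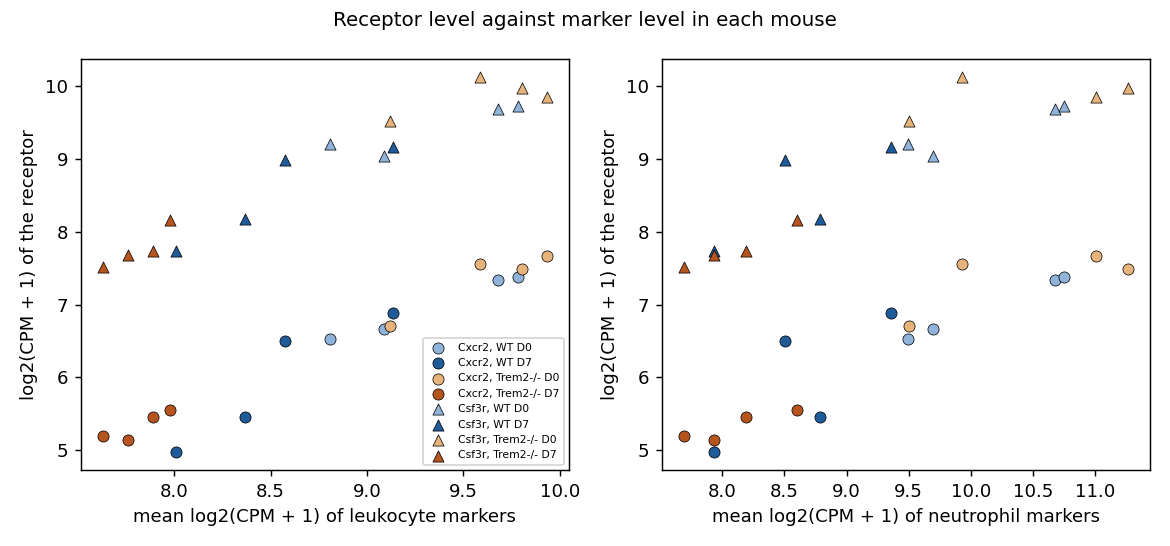
Each mouse gives a circle for Cxcr2 and a triangle for Csf3r, as log2(CPM + 1) on the vertical axis, against the mean log2(CPM + 1) of 6 leukocyte markers (left) or 11 neutrophil markers (right). Mice with more of the markers have more of both receptors, and Trem2-/- D7 mice lie at the low end.

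Markers of other cell types went in both directions. Those of B cells and erythroid cells were called lower after injury, as given in the closing section. Of 5 T and NK cell markers, 3 were called lower in WT and 4 in Trem2-/- mice. In each, 1 was called higher, Thy1 (log2 fold change 1.82 in WT and 2.33 in Trem2-/- mice). Of 4 skeletal muscle markers, 2 and 4 were called lower. Of all genes tested, 18.2% and 27.9% were called lower, and 19.3% and 26.5% were called higher. All 4 chondrocyte markers were called higher after injury in both genotypes (median log2 fold change 2.89 in WT and 3.62 in Trem2-/- mice). Of 8 fibroblast markers, 6 were called higher after injury in WT and 7 in Trem2-/- mice, and of 7 macrophage markers 6 and 5 were called higher, with 1 lower in Trem2-/- mice. The 4 endothelial markers gave 0 calls by limma in either genotype. Summed fibroblast markers ranged from 85231 to 123286 CPM in WT D7 and from 105839 to 152926 CPM in Trem2-/- D7 mice, and 0 of the 8 were called by limma between genotypes at D7. Of 10 immediate-early genes, which respond to handling of tissue, limma gave 3 calls higher in Trem2-/- at D0 and 0 at D7, where 0.782% and 1.18% of all genes were called higher. After injury 2 of them were called lower in WT and 5 in Trem2-/- mice. Their part, and that of the cell types, in the levels of the ligands was not tested.

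The genes whose levels over the 16 mice were most like each member, by Pearson's r on the log2 scale among 10547 genes, separated the ligands from each other. Cxcl1 was closest to Ccl7 (r = 0.947), a monocyte chemokine, then Tfpi2 (0.916) and Chic2 (0.907). Cxcl5 was closest to Tm2d1 (0.897), the alarmin gene Il33 (0.876) and the fibroblast growth factor gene Fgf7 (0.872). Cxcl2 was closest to Cd14 (0.958), the endotoxin co-receptor of myeloid cells, then Nlrp3 (0.936) and Ehd1 (0.933). Cxcr2 came closest to Arl11, Mxd1 and Tmem38b (each 0.987), and Csf3r to Sorl1 (0.993), Gm5150 (0.992) and Themis2 (0.990). With group means taken off, these r values ranged from 0.832 for Tm2d1 to 0.978 for Gm5150. They describe libraries that share depth and cell makeup.

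Among themselves, Cxcl1 and Cxcl5 went together over the mice (r = 0.793, and 0.865 with group means taken off), as did Cxcl2 and Cxcl3 (0.921 and 0.983). Cxcl1 and Cxcl2, next to each other on the chromosome, gave 0.270 and 0.476. Cxcl2 went with Cxcr2 (0.774), whereas Cxcl1 (-0.233) did not. The 5 ligands thus formed no single group across the mice.

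Csf3, the ligand of Csf3r, met the call rule after injury in WT mice but not adjustment. It read 143, 46.6, 184 and 119 CPM in WT D0 and 20.6, 38.8, 114 and 45.0 CPM in WT D7 mice, and the groups overlapped. The log2 fold change was -1.27 (SE 0.47, limma adjusted p = 0.0535). In Trem2-/- mice it read 189, 94.5, 99.5 and 182 CPM at D0 and 85.5, 116, 70.8 and 142 CPM at D7, a log2 fold change of -0.42 (SE 0.47, limma adjusted p = 0.464). The difference of these effects was 0.85 (SE 0.66) with a limma adjusted p of 0.767, which does not separate the genotypes. Between the injured groups Csf3 was called higher in Trem2-/- mice (log2 fold change 1.13, SE 0.47), but its limma adjusted p was 0.622. Of all genes tested, 1.18% were called higher in that comparison and 5.72% in either direction.

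Among the other receptors of the axis, Cxcr1, a relative of Cxcr2 next to it on chromosome 1, was scarce. It had 1 to 84 reads per mouse over all groups, and 10 to 84 in Trem2-/- D0 mice. It read 4.10, 5.31, 4.06 and 0.772 CPM in Trem2-/- D0 mice against 0.538 to 1.29 CPM in WT D0 mice. The log2 fold change at D0 was 1.06 (SE 0.32, limma adjusted p = 0.9996), so it was called but did not pass adjustment. After injury it fell by 1.55 (SE 0.32, limma adjusted p = 0.000908) in Trem2-/- mice, to 0.269 to 0.560 CPM. Ccrl2, a chemokine-presenting receptor that does not signal, fell by 0.81 in WT (SE 0.31, limma adjusted p = 0.0587) and by 1.73 in Trem2-/- mice (SE 0.31, limma adjusted p = 0.000316) on the log2 scale. Ackr1, the chemokine scavenger of venules and red cells, was called higher in Trem2-/- at D7 (0.79, SE 0.37, limma adjusted p = 0.677). Its exons overlap those of Cadm3 on the same strand, and how reads on both were counted is not given in the sources used here.

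The wider pathway was taken from lists of 50 further genes, of which 46 were tested, grouped by role. After injury 25 of the 46 were called lower and 0 higher in WT, and 30 lower and 0 higher in Trem2-/- mice, with a median log2 fold change of -0.52 and -1.03. Of all genes tested, 18.2% and 27.9% were called lower, and the leukocyte markers fell in the same comparisons with medians of -0.75 and -1.77. Of the 11 genes that carry the Cxcr2 signal, 9 and 10 were called lower (medians -0.65 and -1.38). Rac2, the blood-cell Rac of neutrophil movement, fell by 1.17 in WT (SE 0.31, limma adjusted p = 0.0135) and by 2.25 in Trem2-/- mice (SE 0.31, limma adjusted p = 5.09e-05). Pik3cg, the kinase subunit driven by G proteins, fell by 0.91 and 1.92 (SE 0.25 each). Prex1, an exchange factor for Rac, was at -0.21 (SE 0.14) in WT, short of the test, and fell by 0.69 (SE 0.14) in Trem2-/- mice. Between the injured groups 4 of the 11 were called lower in Trem2-/- mice, led by Dock2, a Rac activator of leukocytes, at -0.85 (SE 0.24, limma adjusted p = 0.451). There 4.53% of all genes were called lower, 0 had an adjusted limma p under 0.05, and all 6 leukocyte markers were called lower too (median -0.70).

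Of 10 genes of G-CSF and its receptor signaling, 4 were called lower after injury in each genotype, Csf3 itself being 1 of the 4 in WT. For this and the next lists, 18.2% of all genes tested were called lower in WT and 27.9% in Trem2-/- mice. Gfi1, a transcription factor needed for neutrophil development, fell by 1.46 in WT (SE 0.35, limma adjusted p = 0.00833) and by 2.22 in Trem2-/- mice (SE 0.35, limma adjusted p = 0.000133). Cebpb, of emergency granulopoiesis, fell by 1.06 and 1.39 (SE 0.26 each). Of the 8 cytokines and receptors tested that induce Cxcr2 ligands, 3 were called lower in WT and 4 in Trem2-/- mice. Il6 fell by 1.16 (SE 0.32, limma adjusted p = 0.0165) and 0.83 (SE 0.32, limma adjusted p = 0.0407), and Il17ra, the receptor of interleukin 17, fell by 0.51 and 1.30 (SE 0.19 each). The 4 feedback genes of NF-kB and of chemokine mRNA decay were all called lower in both genotypes, among them Nfkbia, which holds NF-kB in the cytoplasm, by 0.48 and 0.80 (SE 0.13 each). Zc3h12a, a nuclease of inflammatory mRNA, fell by 0.53 and 1.03 (SE 0.16 each). At D0 Nfkbia and Tnfaip3 were called higher in Trem2-/- mice (0.44, SE 0.13, and 0.52, SE 0.20), with adjusted p-values that round to 1. There 0.782% of all genes were called higher, and 0 had an adjusted limma p under 0.05.

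Receptors of other attractants also fell in part. Of the 4 tested, 2 were called lower in WT and all 4 in Trem2-/- mice, where 18.2% and 27.9% of all genes were called lower. Ltb4r1, for leukotriene B4, fell by 1.52 and 2.05 (SE 0.36 each), and C5ar1, for the complement fragment C5a, by 0.68 and 1.70 (SE 0.26 each). Ptafr, for platelet-activating factor, was at -0.50 (SE 0.32, limma adjusted p = 0.25) in WT and fell by 1.72 (SE 0.32, limma adjusted p = 0.000473) in Trem2-/- mice. Cxcr4, which holds neutrophils in the marrow, fell by 0.88 and 1.66 (SE 0.27 each), 1 of 2 genes called lower among the 4 of that list in each genotype. The adhesion gene Vcam1, of the same list, was called higher in injured Trem2-/- mice than in injured WT mice (0.55, SE 0.24, limma adjusted p = 0.629).

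**Figure D5:**
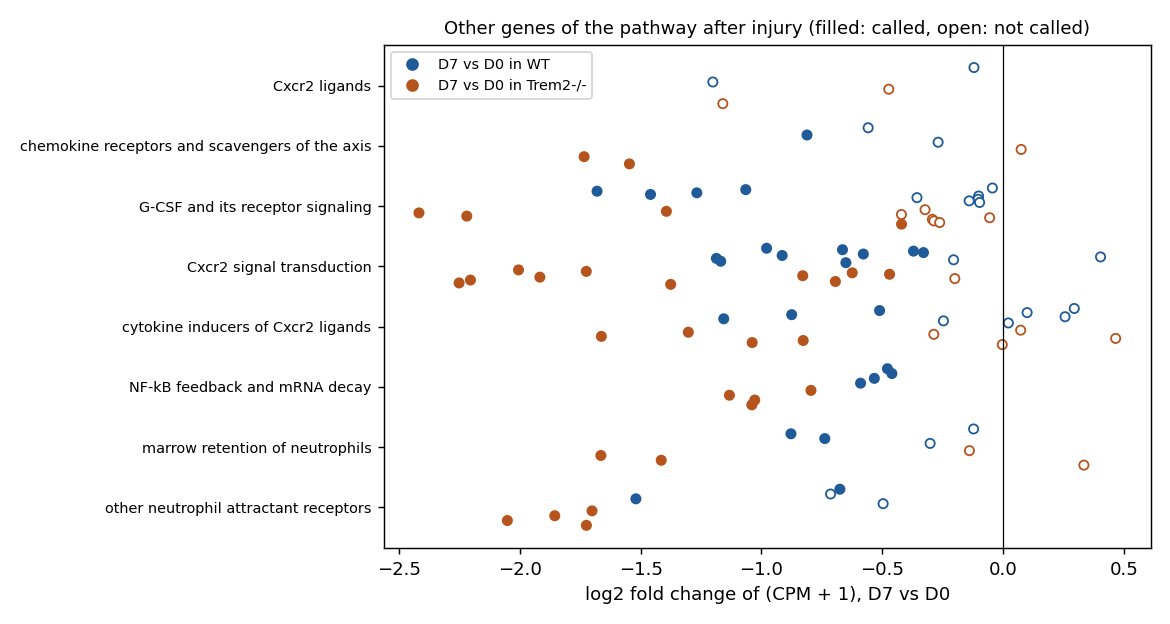
Points are log2 fold changes of CPM + 1 after injury for 46 further pathway genes, by list, in blue for WT and brown for Trem2-/- mice, filled where called by limma. No filled point lies above 0, and 25 are filled in WT against 30 in Trem2-/- mice.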

How the data were processed

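The authors converted base calls with bcl2fastq, aligned reads with STAR (genome mm10), took gene counts from featureCounts and scaled them by the TMM factors of edgeR. The deposited signal values are CPM relative to each library's size times its TMM factor. Tool versions, gene annotation and strand setting are not given in the sources used here. Fcgr1, listed in 2 identical rows, was used once. Every value (100%) was a whole multiple of 1 read within 0.01 read, so reads per gene were recovered for the count tests among the alternatives. These limits cover counting error only.

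Values were compared as log2(value + 1) with limma 3.58.1 (trend) in R 4.3.3, for 13173 genes that reached 1 CPM in 4 or more of 16 libraries, with 4 groups in one factor. The call rule is that of the study. The 5 members and all gene lists were chosen with earlier results of these data known. Named genes are the members, the ligands, receptors and G-CSF of the axis, the genes with the lowest p of a pathway list in a comparison (up to 4 per list), Trem2, and the 3 genes most like each member with a mean of at least 5 CPM. The code of the tests was run on simulated counts with known changes. All genes there had the same set spread, so the run does not give error rates at the spread between these mice. Positions and exon lengths are from GENCODE M21 (GRCm38), and promoters from RefSeq. Cxcl15, Il17a, Nfkbiz and Fpr2, also in the lists, were not analysed here.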

Additional observations from a re-analysis of the deposited data

Results flagged for a closer look

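Cxcl5 in Trem2-/- D0 replicate 1 stood apart from its group, at 20.4 CPM against 1.91 to 2.78 CPM in the other 3 mice, with a gap of 0.953 of the group's range. Ppbp in Trem2-/- D7 replicate 3 did so with a gap of 0.858, at 3.36 against 2.07 to 2.25 CPM. Of 48 groups of 4 mice examined, 2 were marked in this way, and chance marks about 1 in 20.

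The injury effect on Cxcr1 differed between genotypes by the call rule. The difference was -1.28 on the log2 scale, from -0.27 in WT to -1.55 in Trem2-/- mice, with a limma adjusted p of 0.579. Among all genes tested, 7.79% were called in this comparison.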

How the results depend on the processing

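Under other pseudocounts, filters, scalings, fits and count tests, all 270 values of the 5 genes kept their direction and, where tested, their side of the threshold. Of 240 values with 1 mouse left out, 227 did so, 3 were weaker, 2 stronger and 8 reversed. With single mice left out, the log2 fold change after injury in WT ranged from -0.70 to 0.066 for Cxcl1 and from -0.70 to 0.32 for Cxcl5, where Cxcl5 reached 0.15 and Cxcl1 0.066 without WT D0 replicate 1. Leaving out WT D0 replicate 4 put Cxcl5 at 0.25, and leaving out WT D7 replicate 4 at 0.32. Cxcl2 ranged from -0.78 to -0.15 in WT and from -1.21 to -0.77 in Trem2-/- mice, and at D7 its genotype difference ranged from -0.47 to 0.16 (0.02 without Trem2-/- D7 replicate 1). At D0 the genotype difference ranged from -0.33 to 0.54 for Cxcl1 (-0.33 without WT D0 replicate 2, -0.21 without Trem2-/- D0 replicate 1) and from -1.38 to -0.33 for Cxcl5. The cause was not tested.

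The number of genes called between genotypes at D0, 283, was 164 with a pseudocount of 5, 149 when the fit held just the compared groups and 466 with edgeR's quasi-likelihood test on reads. It ranged from 107 (without WT D0 replicate 4) to 1231 (without WT D0 replicate 2) with 1 mouse left out, and was 441 with WT D0 replicate 1 left out, 442 with WT D0 replicate 3 left out and 542 with Trem2-/- D0 replicate 4 left out. At D7 it was 753, 1366 with only the groups compared, and 480 to 1123 with 1 mouse left out (480 without WT D7 replicate 3). For the difference of injury effects it was 1026, and 609 (without WT D0 replicate 4) to 2236 (without WT D0 replicate 2), with 662 without WT D7 replicate 3. The share of calls that were lower at D0 was 76.6% with edgeR and 56.4% with only the groups compared.

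Replicate numbers showed no pairing common to all comparisons: correlations of same-numbered mice ranged from -0.509 to 0.406, and 7 of 16 were over 0.1. Those of differently numbered mice ranged from -0.632 to 0.713. For D7 against D0 in WT, the same-numbered values were 0.046, 0.203, 0.406 and 0.306. Different numbers there gave -0.426 to 0.343, so pairing in that comparison was not settled. With the number as a replicate block, 4891 genes were called after injury in WT and 7094 in Trem2-/- mice, and the block changed no call on the 5 genes. The median of all genes moved by less than 0.1 under each scaling.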

Other observations

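Genes of primary granules, which immature neutrophils of the marrow transcribe, were high and uneven in uninjured joints. The sum of Mpo, Elane, Prtn3, Ctsg and Ms4a3 ranged from 608 to 2477 CPM in WT D0 and from 866 to 4034 CPM in Trem2-/- D0 mice. After injury it ranged from 230 to 544 CPM in WT and from 257 to 357 CPM in Trem2-/- mice, and all 5 genes were called lower in both genotypes by limma. Between genotypes, 0 of the 5 were called by limma at D0 or at D7. The 4 B cell markers, also of marrow and blood, were called lower after injury in both genotypes, and between the injured groups in Trem2-/- mice (median log2 fold change -0.99). The 3 erythroid markers tested were called lower after injury in both genotypes as well. Of all genes tested, 18.2% were called lower after injury in WT, 27.9% in Trem2-/- mice and 4.53% between the injured groups.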
